A study of Mus musculus with 9 samples.

Results

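The response of the kidney to ureteral obstruction was measured in mice without Notch3, by setting arrays of obstructed kidneys against arrays of unobstructed kidneys of the same genotype. The members were chosen by label: 5 of the 9 arrays of the series are labelled Notch3-/-, 3 of them UUO day 5 and 2 of them healthy, and every non-control probe was read. The other 4 arrays are wild type, 2 labelled UUO day 5 and 2 labelled healthy. UUO stands for unilateral ureteral obstruction, here a ligature on the right ureter of mice aged 12 to 16 weeks, left in place for 5 days. By the design text, RNA came from the kidney cortex, the animals were matched for sex, and the unligated left kidney of the operated mice was the comparison, so "healthy" means a contralateral kidney and not a kidney of an unoperated mouse. The labels give the genotype as Notch3-/- and name no strain, no targeted allele and no Cre line. They do not say whether the arrays of a group came from separate mice, or whether an obstructed and a healthy array came from the same mouse. The p-values therefore measure the spread between these arrays, which may be technical.

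NOTCH3 is a receptor that smooth muscle cells and pericytes of small vessels carry, and on binding a JAG or DLL ligand of a neighbouring cell its inner part is cut free and acts in the nucleus on genes such as the HES and HEY repressors. In an obstructed kidney, back pressure injures the tubules, whose cells lose transport and mitochondrial genes and switch on injury genes. Leukocytes enter the interstitium, and fibroblasts and pericytes lay down collagen. Whole cortex was measured, so fewer cells of a type and less RNA per cell cannot be told apart.

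Each value below is a log2 signal relative to the 75th percentile of its array, and values are given in the order UUO replicates 1, 2 and 3, then healthy replicates 1 and 2. A fold change is the difference of group means on that scale, with its standard error (SE) from limma, a linear model fitted here over all 9 arrays. A feature was called changed at a Benjamini-Hochberg adjusted p under 0.05 over 23878 features, of which 16603 carry a gene symbol. Where no healthy array gave a probe a signal well above background, the change is written "at least N-fold", which sets the obstructed mean against the higher of the probe's own healthy signal and the dimmest signal well above background on that array. Detection differed between the groups: of 43020 spots, 71.0% to 73.2% were well above background on the obstructed Notch3-/- arrays and 66.1% and 65.5% on the healthy ones. The signal at the 75th percentile was 1108.9 to 1218.5 against 653.1 and 827.6, also without overlap, and the part of this in the results was not tested beyond the other scalings. No spot was saturated.

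Notch3 itself was low on every array labelled Notch3-/-. Its probe read -4.30, -3.74 and -3.63 on the obstructed and -4.98 and -5.39 on the healthy arrays, against 0.92 and 0.68 on the wild-type obstructed and -0.26 and -0.50 on the wild-type healthy arrays. The Notch3-/- arrays did not overlap with the wild-type arrays, which fits the labels. Signal remained well above background on all 5 Notch3-/- arrays and rose with obstruction by 1.30 ± 0.24 (SE, limma adjusted p = 0.0148). Neither the labels nor the files say whether this probe matches the exons removed from the mutant allele, so its level checks the labels only in part.

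UUO replicates 2 and 3 stood apart from the other 3 Notch3-/- arrays in genes of other tissues and of sex. Cyp11b1, the adrenal enzyme that makes corticosterone, read -8.35, 4.69 and 5.15 on the obstructed arrays and -8.28 and -7.79 on the healthy arrays. Xist, the RNA that silences an X chromosome in female cells, read -8.64, 0.18 and 0.00 against -5.71 and -6.52, and the Y-linked helicase gene Ddx3y read -0.03, -3.80 and -3.67 against 0.42 and 0.20. UUO replicate 1 was near the healthy arrays in Cyp11b1 and Ddx3y and below them in Xist, and replicates 2 and 3 were near each other in all 3 genes. The design text calls the animals matched for sex, but in Xist and Ddx3y replicates 2 and 3 were unlike both healthy arrays. Between those arrays, sex and obstruction cannot be told apart. The Xist and Cyp11b1 probes were well above background on UUO replicates 2 and 3 and on no other Notch3-/- array. The summed linear signal of 14 adrenal cortex markers was 17.7, 282 and 347 on the obstructed arrays and 26.5 and 26.3 on the healthy arrays, and that of 7 adrenal medulla markers was 3.48, 50.6 and 60.4 against 7.47 and 6.27. Adipocyte markers split the arrays another way: the sum of 10 genes was 6.8, 47.9 and 71.6 against 3.34 and 99.3, so that healthy replicate 2 joined UUO replicates 2 and 3. Over all features, 168 were at least 8-fold higher on both UUO replicates 2 and 3 than on replicate 1, and 3 of those 168 were called as rises with obstruction. Another 66 were at least 8-fold lower, of which 2 were called as falls. The part of these genes' source tissue or sex in any other result was not tested, so the counts are given over all 3 obstructed arrays and then with a term for replicates 2 and 3. With that term, the change is that of UUO replicate 1 against both healthy arrays, and the lone array is assumed to vary like the other groups. It is called below the change by replicate 1.

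**Figure D1:**
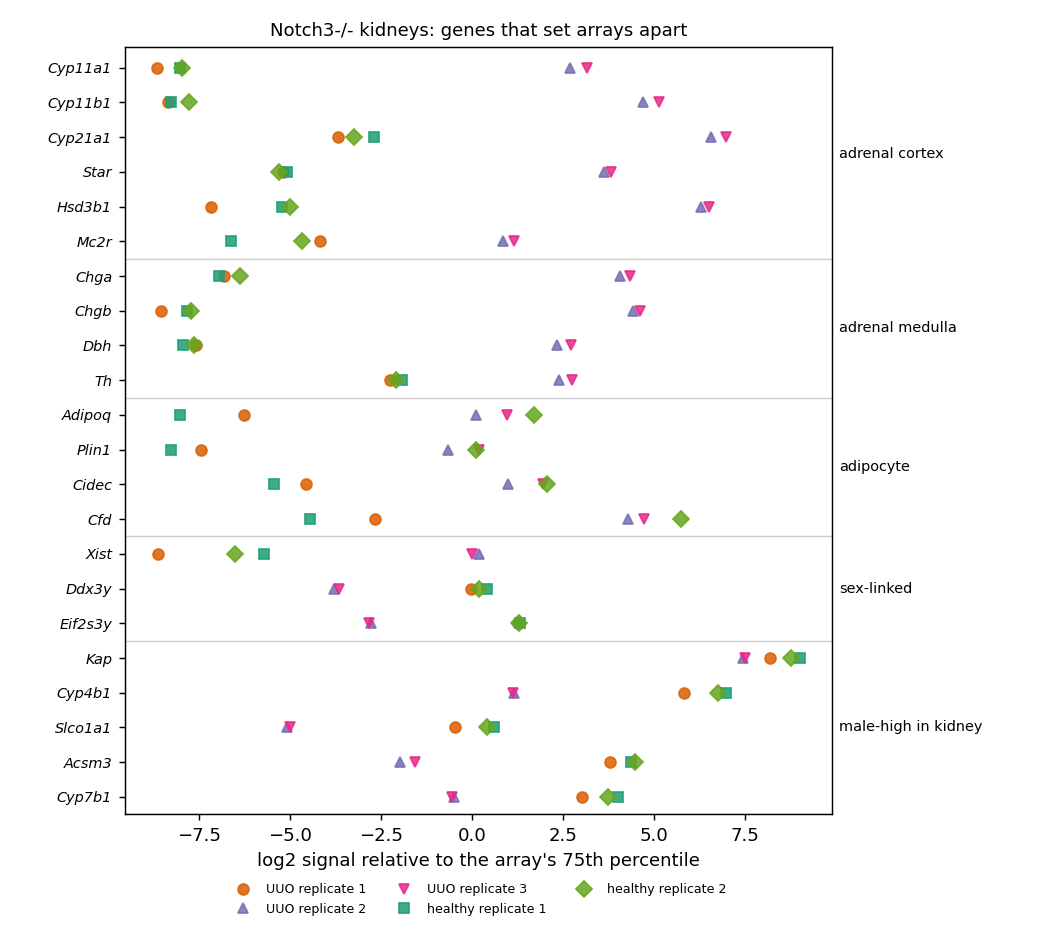
Log2 signal relative to the array's 75th percentile (horizontal axis) of genes of the adrenal cortex, adrenal medulla, adipocytes, the sex chromosomes and the male kidney, with one symbol per Notch3-/- array. UUO replicates 2 and 3 lie to the right of the other arrays for the adrenal genes, with Cyp11b1 at 4.69 and 5.15 against -8.35 on UUO replicate 1, and to the left for Ddx3y and the male-high genes.

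Obstruction changed 27.2% of the features tested. Of the 23878 features, 3171 (13.3%) rose and 3322 (13.9%) fell, and the median over all of them was -0.07. By fitted size the rises were the larger changes: 2431 rises and 1353 falls were at least 2-fold, and 295 rises and 42 falls were at least 8-fold. These counts include features not well above background in the lower group, for which only a bound on the fold is known. Detection was lower on the healthy arrays, and its part in this imbalance was not tested. All 3 obstructed arrays lay above both healthy arrays for 26.0% of features and below both for 35.3%. By replicate 1, 1013 features rose (4.24%) and 137 fell (0.574%), of which 1003 of the rises were also called over all 3 arrays, and 0 calls changed direction. Without UUO replicate 1, 4161 features rose and 4482 fell. Every called feature had the same direction on each obstructed array taken alone, but the size differed by array. The calls were made on these same arrays, which favours a shared direction, so this agreement is not independent support. The risen features had a median difference from the healthy mean of 1.19 on replicate 1, 1.72 on replicate 2 and 1.71 on replicate 3. The fallen ones had medians of -0.61, -1.06 and -1.03. With normexp background correction, rises made up 28.5% of the calls in place of 48.8%, with 2360 rises and 5926 falls, and the median of all features moved to -0.23.

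**Figure D2:**
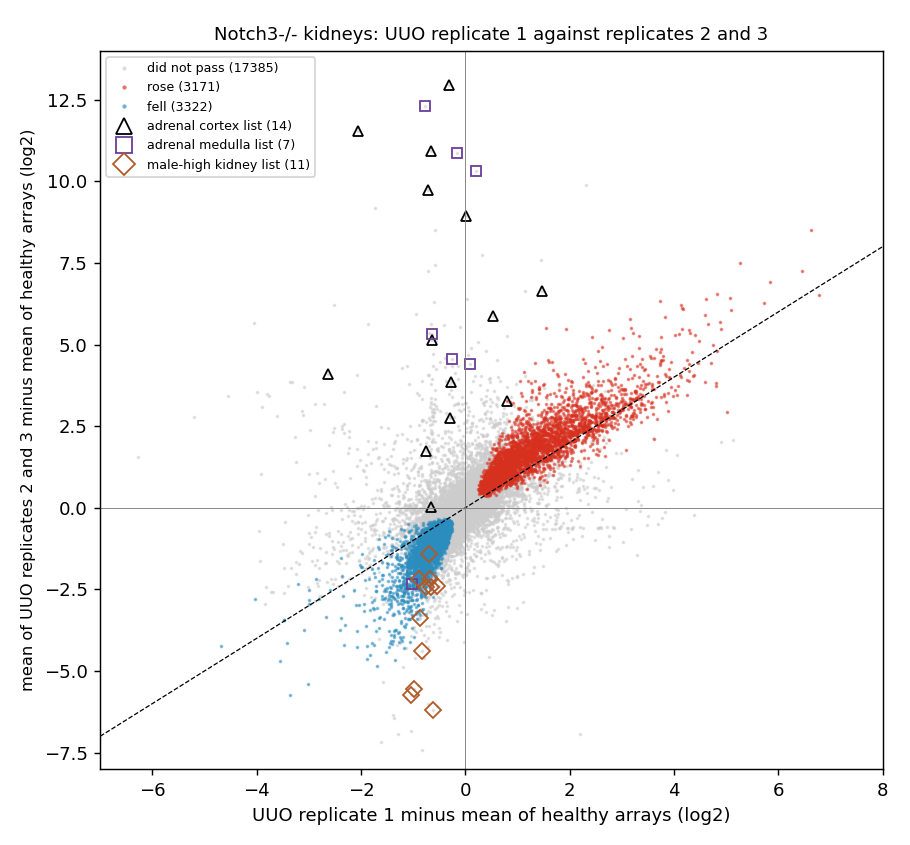
Each point is 1 of 23878 features, with the difference from the healthy mean on UUO replicate 1 (horizontal axis, log2) against the mean difference on UUO replicates 2 and 3 (vertical axis, log2); the dashed line marks equality. The 3171 rises and 3322 falls lie in the quadrants of equal sign, mostly farther from 0 on the vertical axis, whereas most adrenal markers (triangles and squares) lie near 0 on the horizontal axis and far above it on the vertical axis.

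Tubular injury genes rose strongly. Of 30 genes of this list, 25 rose and 0 fell, with a median change of 2.97, and 15 of the 30 rose by replicate 1. Havcr1, the gene of KIM-1, a receptor that injured proximal tubule cells display, read 2.64, 3.27 and 3.61 on the obstructed arrays and -3.50 and -4.12 on the healthy arrays. The groups were separated by over 6 log2 units, and Havcr1 rose by 6.98 ± 0.31 (SE, limma adjusted p = 0.000417), or 126-fold. Lcn2, which encodes the iron-carrier binding protein NGAL, read 3.71, 5.11 and 5.26 against 0.10 and -0.17 and rose by 4.73 ± 0.46 (adjusted p = 0.0014). Sox9, a transcription factor of regenerating tubule cells, was nearly equal on the 3 obstructed arrays, at -1.64, -1.46 and -1.64, against -5.69 and -5.97 on the healthy arrays. It rose by 4.25 ± 0.15 over all arrays and by 4.19 by replicate 1. Vcam1, an adhesion molecule that injured tubule cells and activated endothelium display, rose by 4.90 ± 0.22, and Spp1, which encodes osteopontin, rose by 3.72 ± 0.32. The fibrinogen chain genes Fgb and Fgg rose by 5.46 ± 0.63 and 3.58 ± 0.34. Krt20, a keratin of injured tubules and of bladder umbrella cells, read 1.46, 3.81 and 3.56 against -4.26 and -3.35 and rose by 6.75 ± 1.18 (adjusted p = 0.012). It did not pass by replicate 1, where the change was 5.27 (adjusted p = 0.115). Krt8, a keratin of simple epithelia, and Hmox1, the gene of the haem-degrading enzyme, did not pass, with changes of 0.49 and 0.56.

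The largest rise among called features was that of Il1f6, which encodes the epithelial cytokine interleukin-36 alpha. Il1f6 read 0.03, 1.80 and 2.05 on the obstructed arrays, where it was well above background, and -6.04 and -7.15 on the healthy arrays, where it was not. The obstructed level was at least 161-fold higher (adjusted p = 0.000824). Other genes of this kind were Vgf, a secreted peptide precursor (at least 27.1-fold), Meltf, an iron-binding membrane protein (at least 28.9-fold), and Iqsec3 (at least 11.8-fold). Genes of squamous and urothelial epithelium gave 6 rises and 1 fall among 20 tested (3 and 0 by replicate 1). Sprr2g and Sprr2f, which encode small proline-rich proteins of the cornified envelope, rose by 5.98 ± 0.54 and 5.80 ± 0.71 (1 healthy array gave Sprr2f a signal well above background), although near-identical Sprr2 copies make the gene behind each probe uncertain. Krt15, a basal keratin, read -2.33, -4.33 and -4.47 on the obstructed arrays and was not well above background on the healthy arrays. Its level was at least 5.03-fold higher with obstruction. The fall was that of Trp63, a basal-cell factor, by 0.87 ± 0.23, and the remaining 13 genes did not pass. The summed signal of the 20 genes was 12.8, 20.1 and 20.9 on the obstructed arrays and 12.6 and 10.8 on the healthy arrays, and their median change turned from 0.87 to -0.08 with normexp background correction.

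**Figure D3:**
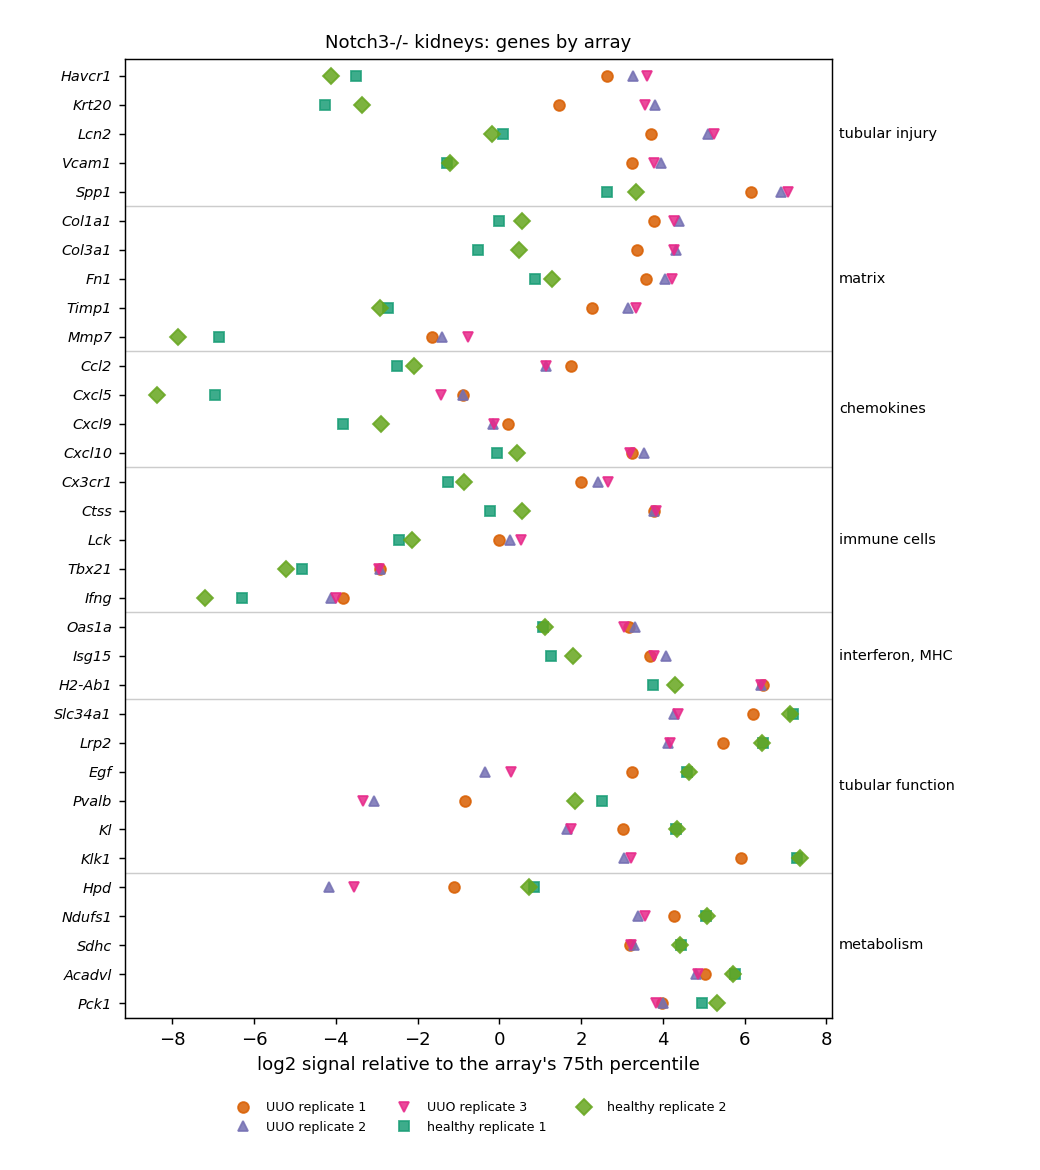
Log2 signal relative to the array's 75th percentile (horizontal axis) of genes named in the text, with one symbol per Notch3-/- array and genes grouped by role. For the genes that rose, such as Havcr1 and Mmp7, the 3 obstructed arrays lie right of both healthy arrays, and for those that fell, such as Egf and Klk1, they lie left, with UUO replicate 1 nearest to the healthy arrays in tubular genes.

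Genes of the extracellular matrix rose together. Of 22 collagen genes, 16 rose and 2 fell (9 and 0 by replicate 1), and of 32 matrix glycoprotein and proteoglycan genes, 26 rose and 0 fell (10 and 0). Col1a1, a chain of type I collagen, read 3.78, 4.38 and 4.27 on the obstructed arrays and -0.01 and 0.55 on the healthy arrays. All 3 obstructed arrays were at least 3 log2 units above the healthy ones, and Col1a1 rose by 3.87 ± 0.33 (adjusted p = 0.000918). Col3a1, the type III chain, rose by 4.01 ± 0.50 and Col1a2 by 3.13 ± 0.24. The largest collagen change was in Col8a1, a short-chain collagen of vessel walls, which read -2.49, -1.68 and -1.53 with obstruction. It was not well above background without obstruction, and the obstructed level was at least 17.7-fold higher (adjusted p = 0.00066). The 2 collagen genes that fell were Col4a4, a chain of the mature glomerular basement membrane, by 1.27 ± 0.30, and Col27a1, by 0.81 ± 0.18. Col4a3, the partner chain of Col4a4, did not pass at -0.95 ± 0.34. Fn1, which encodes fibronectin, read 3.58, 4.05 and 4.23 against 0.88 and 1.28 and rose by 2.87 ± 0.30. Thbs2, Fbn1 and Mfap2, which encode thrombospondin 2 and 2 proteins of elastic microfibrils, rose by 3.43 ± 0.29, 2.78 ± 0.30 and 2.78 ± 0.32.

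Enzymes that cut or cross-link matrix, and their inhibitors, gave 22 rises and 1 fall among 38 genes (13 and 0 by replicate 1). Mmp7, an epithelial metalloproteinase, read -1.64, -1.41 and -0.76 with obstruction and -6.87 and -7.86 without, where it was not well above background. Its level was at least 27.3-fold higher, and that of Mmp3, stromelysin 1, at least 20.3-fold. Both separated the groups on every array. Mmp2, a gelatinase of mesenchymal cells, rose by 4.16 ± 0.43, and its membrane-bound activator Mmp14 by 2.56 ± 0.27. Timp1, an inhibitor of these enzymes, read 2.27, 3.15 and 3.34 against -2.72 and -2.91 and rose 53.2-fold (5.73 ± 0.36, adjusted p = 0.000516). The fall was that of Timp3, another inhibitor, by 1.32 ± 0.29. Loxl2 and Loxl3, which cross-link collagen, rose by 2.43 ± 0.22 and 2.06 ± 0.19.

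Ligands and receptors of the TGF-beta and PDGF families gave 14 rises and 1 fall among 30 genes (6 and 0 by replicate 1). Tgfb1, the main profibrotic ligand, rose to -0.91, -0.57 and -0.43 from -2.88 and -2.38 (adjusted p = 0.00272), with no overlap, and Tgfb3 rose by 2.32 ± 0.34. Inhba, the activin A subunit, was not well above background on the healthy arrays and was at least 12.0-fold higher with obstruction. Pdgfb and its receptor gene Pdgfrb rose by 1.97 ± 0.26 and 1.91 ± 0.29. Bmp7, a tubular factor that opposes TGF-beta, fell by 1.12 ± 0.20.

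Markers of fibroblasts, which would carry much of this matrix, gave 11 rises and 0 falls among 14 (4 by replicate 1). Their summed signal was 76.1, 116 and 114 on the obstructed arrays and at most 26.5 on the healthy arrays, and the list is not independent of those above, since it shares Col1a1 and Col1a2 with the collagens, other genes with the glycoprotein list and Pdgfra with the TGF-beta and PDGF list, as well as Thy1 with the T cell markers. Pdgfra, the fibroblast PDGF receptor, rose by 2.13 ± 0.35 and Fap by 1.92 ± 0.42, whereas Pi16 did not pass at -0.57 ± 0.21. Meg3 read -3.63, 2.01 and 2.01 against -4.42 and -2.63, so that UUO replicates 2 and 3 alone were high, and it did not pass. Of 19 genes of vascular smooth muscle and pericytes, the cells in which Notch3 normally acts, 7 rose and 0 fell (1 by replicate 1). The 7 include the probe of Notch3 itself, and Heyl and Pdgfrb, which are counted in other lists too. Acta2, smooth muscle actin, read 2.84, 2.18 and 2.46 against 0.35 and 0.78 and rose by 1.93 ± 0.35, highest on UUO replicate 1. Tagln and Des rose by 1.99 ± 0.29 and 1.38 ± 0.25. Endothelial markers gave 5 rises and 0 falls among 20 (0 by replicate 1), with Robo4 up by 1.03 ± 0.17 and Plvap, a component of fenestral diaphragms, by 0.99 ± 0.19. Their summed signal was 53.1, 55.5 and 58.5 against 39.9 and 40.9, and their called share was about that of all features, 27.2%. Of 20 podocyte markers, 7 rose and 2 fell (1 and 0 by replicate 1). Among the falls was that of Vegfa, which podocytes and tubules secrete, by 0.74 ± 0.13.

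**Figure D4:**
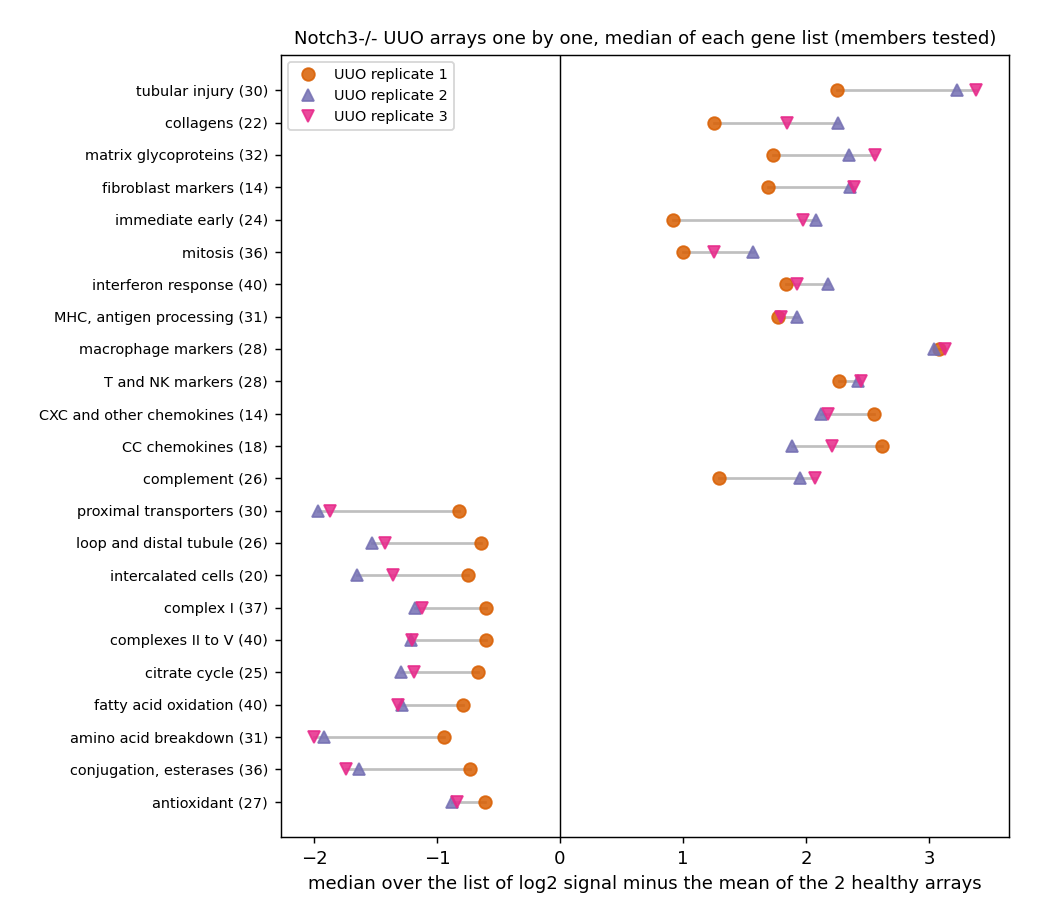
Median over the tested members of each gene list (number in brackets) of the log2 signal minus the mean of the 2 healthy arrays, with one symbol per obstructed Notch3-/- array. Macrophage, T and NK cell, interferon and MHC lists had nearly the same median on all 3 arrays (3.08, 3.04 and 3.13 for macrophage markers), whereas the transport and mitochondrial lists fell less on UUO replicate 1 (-0.82 against -1.97 and -1.87 for proximal transporters).

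Chemokine genes rose on UUO replicate 1 as much as on the other 2 arrays. Of 18 CC chemokine genes, 12 rose and 1 fell (8 and 0 by replicate 1), and of 14 CXC and related genes, 11 rose and 0 fell (10 and 0). Ccl2, which draws in monocytes, read 1.75, 1.15 and 1.14 on the obstructed arrays and -2.50 and -2.09 on the healthy arrays and rose by 3.65 ± 0.26 (adjusted p = 0.00066). The highest of the 3 was replicate 1, and the groups did not overlap. Ccl12, another monocyte attractant, rose by 4.15 ± 0.25 and Ccl5, which draws in T cells, by 3.57 ± 0.27. Ccl1 was not well above background on the healthy arrays and was at least 7.77-fold higher. Cxcl5, an attractant of neutrophils, read -0.88, -0.88 and -1.43 with obstruction and -6.95 and -8.37 without. Its obstructed level was at least 31.5-fold higher (adjusted p = 0.000604), and Cxcl1 and Cxcl2, with the same role, rose by 4.87 ± 0.48 and were at least 5.67-fold higher, respectively. The interferon-induced T cell attractants Cxcl9 and Cxcl10 rose by 3.32 ± 0.35 and 3.15 ± 0.22. Cxcl17, a mucosal chemokine with a signal well above background on 1 healthy array, rose by 5.45 ± 0.69. Cxcl12, which stromal cells make, did not pass at -0.48 ± 0.31. Ccl8 read 0.85, -0.79 and -0.47 against -5.21 and -0.30, with healthy replicate 2 among the obstructed arrays, and did not pass.

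Of 17 chemokine receptor genes, 11 rose and 0 fell (6 and 0 by replicate 1, and 7 rises and 2 falls with normexp). Cx3cr1, which monocytes and macrophages carry, read 1.99, 2.41 and 2.67 against -1.25 and -0.87 and rose by 3.42 ± 0.22 (adjusted p = 0.000523). Ccr2, the receptor for CCL2, rose by 2.84 ± 0.31, and Cxcr3, the receptor for CXCL9 and CXCL10, by 2.33 ± 0.26. The neutrophil receptor gene Cxcr2 did not pass at 0.93 ± 0.36. The median of the receptor list fell from 1.61 to 0.12 with normexp background correction, which called 7 rises and 2 falls. Of 13 genes with which leukocytes leave the blood, 11 rose and 0 fell (7 and 0 by replicate 1). Beside Vcam1, these included Selplg, the selectin ligand of leukocytes (2.66 ± 0.21), Icam1 (2.18 ± 0.25) and the integrin chain Itga4, which binds VCAM-1 (2.16 ± 0.18).

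Cytokine and cytokine receptor genes gave 27 rises and 1 fall among 34 (17 and 0 by replicate 1). Tnf read -3.99, -3.91 and -3.85 with obstruction and -7.87 and -7.89 without, where it was not well above background, and was at least 4.36-fold higher (adjusted p = 0.00045). Il10ra, the receptor chain for interleukin 10, rose by 2.64 ± 0.17 and Csf1, the macrophage growth factor, by 2.22 ± 0.16. The fall was that of Il11ra1, a receptor chain for interleukin 11, by 0.95 ± 0.16. Complement genes gave 15 rises and 4 falls among 26 (10 and 0 by replicate 1). The macrophage products C1qb and C1qc rose by 2.95 ± 0.28 and 3.33 ± 0.27, the anaphylatoxin receptor gene C3ar1 by 3.61 ± 0.29 (well above background on 1 healthy array), and Cfi, the inhibitor that cleaves C3b, by 2.54 ± 0.22. C1rl and Masp2 were among those that fell, by 0.76 ± 0.16 and 1.76 ± 0.53. Toll-like receptors and their partners gave 12 rises and 2 falls among 22 (7 and 0 by replicate 1). Cd14, the endotoxin co-receptor, and Tlr2 rose by 4.28 ± 0.29 and 3.72 ± 0.19, and Tlr13 by 1.94 ± 0.11. The falls were Tlr12, by 1.45 ± 0.36, and Nlrp3, an inflammasome sensor, by 0.65 ± 0.20, which turned to 0.07 with the mean of its probes.

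Macrophage and monocyte markers rose in 24 of 28 genes (23 by replicate 1), with a median of 3.19, and their summed signal was 111, 98.0 and 106 on the obstructed arrays and 46.4 and 41.0 on the healthy arrays. Trem2, a lipid receptor of macrophages, read 1.16, 1.21 and 1.28 against -2.12 and -1.89. The 3 obstructed arrays were nearly equal, and Trem2 rose by 3.22 ± 0.16 (adjusted p = 0.000432). Aif1, which encodes IBA-1, rose by 2.99 ± 0.20 and Cd86, a co-stimulatory ligand, by 2.20 ± 0.15. Msr1, a scavenger receptor, was at least 3.78-fold higher. The fallen genes were Mertk, an engulfment receptor that tubule cells also make, by 0.55 ± 0.16, and Itgam, for which 2 probes were called in opposite directions and no direction can be given.

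Among 28 genes of T and NK cells, 22 rose (19 by replicate 1) and 0 fell, with a median of 2.35 and medians of 2.27, 2.42 and 2.45 on the obstructed arrays one by one. Their summed signal was 12.3, 14.1 and 15.6 against 5.13 and 5.17. Lck, the kinase of the T cell receptor pathway, read 0.00, 0.27 and 0.53 against -2.46 and -2.13 and rose by 2.56 ± 0.21 (adjusted p = 0.000834). The next kinase of that pathway, Zap70, rose by 2.38 ± 0.15. Tbx21, the factor of Th1 and NK cells, read -2.92, -2.92 and -2.94 against -4.83 and -5.21, with the 3 obstructed arrays almost equal, and rose by 2.09 ± 0.16. Ifng, a cytokine gene that it activates, lay between -4.11 and -3.83 on the obstructed arrays and was at least 4.17-fold higher than on the healthy arrays, where it was not well above background (adjusted p = 0.00124). The T cell receptor chain gene Cd3e and the co-receptor gene Cd4 did not pass, at 0.14 ± 0.33 and -0.26 ± 0.45. With normexp background correction 17 of the 28 rose and the median was 0.75. Markers of other leukocytes moved less. The neutrophil list and the B and plasma cell list were called in a smaller share than all features, 27.2%. Of 12 neutrophil genes, 1 rose, also by replicate 1, the decoy receptor gene Il1r2 (at least 2.97-fold), while S100a8 and S100a9 were at 1.24 ± 0.50 and 1.22 ± 0.47 and did not pass. The list's median was 0.49 and turned to -0.18 with normexp, and its summed signal lay between 66.5 and 71.2 on the obstructed arrays, against 92.5 and 68.9. Of 14 B and plasma cell genes, 3 rose and 0 fell (0 by replicate 1), among them Cd79b, a chain of the B cell receptor, by 1.82 ± 0.25. Dendritic cell genes gave 5 rises and 0 falls among 10 (1 by replicate 1), including Ccr7 (2.20 ± 0.17) and Cd209a (1.71 ± 0.29). All 3 obstructed arrays lay above both healthy arrays for 7 of the 10 and below both for 2. The summed signal of this list was lower with obstruction, at 72.7, 71.2 and 64.2, against at least 81.1 on the healthy arrays. Its median change was 0.80, and normexp gave 4 rises, 1 fall and a median of 0.32.

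Interferon-induced genes rose almost without exception. Of 40 genes of the list, 38 rose and 0 fell, with a median of 2.02, and 28 rose by replicate 1. The same 38 to 0 split was counted under all 3 other scalings tried. Oas1a, which makes the second messenger that activates RNase L, read 3.17, 3.33 and 3.04 on the obstructed arrays and 1.06 and 1.11 on the healthy arrays. It rose by 2.10 ± 0.14 (adjusted p = 0.000523), and the arrays of each group lay close together. Isg15, a ubiquitin-like modifier, read 3.68, 4.07 and 3.77 against 1.27 and 1.80 and rose by 2.31 ± 0.20. Trim30a rose by 1.93 ± 0.18 and Oasl1 by 2.29 ± 0.18. Ifi27l2a, which read 4.76, 5.39 and 5.47 against 2.57 and 4.71, did not pass, and its healthy arrays lay far from each other.

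The interferon-stimulated response element, GAAA followed by any pair of bases and GAAA again, is the letter pattern bound by the factors that interferons activate. It was searched on both strands in the 250 bases before the start of each gene, in RefSeq's promoter sequences of the build GRCm38.p6. It was present in 13 of the 32 interferon list genes with a promoter in the table (40.6%), in 6.1% of promoters of genes that rose, in 3.3% of those of all tested genes and in 3.5% of all promoters. Matches are letters in a window and not binding sites, and overlapping matches were each counted. The promoters of the called genes with the smallest adjusted p that hold it are shown 5′ to 3′ in the direction of the gene, with the matched letters in capitals. Oas1a lies on the minus strand, with its stretch at chr5:120907526-120907625, Isg15 on the minus strand at chr4:156200830-156200929, and Trim30a on the minus strand at chr7:104465194-104465293, where the match lies on the opposite strand.
Oas1a: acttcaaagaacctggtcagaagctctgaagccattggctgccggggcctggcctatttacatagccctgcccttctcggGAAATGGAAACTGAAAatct
Isg15: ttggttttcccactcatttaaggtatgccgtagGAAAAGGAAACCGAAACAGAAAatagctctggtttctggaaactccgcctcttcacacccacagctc
Trim30a: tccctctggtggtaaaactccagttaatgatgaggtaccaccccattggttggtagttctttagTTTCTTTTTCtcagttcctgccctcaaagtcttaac

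Oas1a held 2 overlapping matches in this stretch, Isg15 held 3 and Trim30a held 1. These 3 genes rose by similar amounts, 2.10, 2.31 and 1.93. Antigen presentation genes, many of which interferon gamma induces, gave 29 rises and 0 falls among 31 (21 by replicate 1). H2-Ab1, a chain of MHC class II, read 6.46, 6.40 and 6.41 against 3.77 and 4.30 and rose by 2.39 ± 0.17 (adjusted p = 0.00066), with its partner chains H2-Aa and H2-Eb1 up by 2.45 ± 0.22 and 2.53 ± 0.18. Cd74, the invariant chain, rose by 2.27 ± 0.18, and Ctss, the cathepsin that trims it, by 3.63 ± 0.22. H2-Q8 rose by 2.39 ± 0.17, although the class I genes are near-identical and the gene behind the probe is uncertain.

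Cell division genes rose less far and less firmly. Of 36 mitosis genes, 23 rose and 0 fell, with a median of 1.32, and 0 of them passed by replicate 1. Plk1, a kinase that drives entry into mitosis, read 0.17, 0.81 and 0.28 against -1.46 and -0.81 and rose by 1.56 ± 0.28 (adjusted p = 0.0127). Bub1, a spindle checkpoint kinase, read -4.03, -3.22 and -3.62 against -5.94 and -5.04 and rose by 1.87 ± 0.34. Both separated the groups, with healthy replicate 2 nearer to the obstructed arrays than healthy replicate 1. Mki67, the proliferation marker, rose by 1.53 ± 0.32, and Pbk, a mitotic kinase, did not pass at 0.41 ± 0.35. DNA replication genes gave 17 rises and 1 fall among 35 (3 and 0 by replicate 1). Ccne1, the cyclin of S phase entry, rose by 2.22 ± 0.31, and the hemimethylated-DNA reader Uhrf1 by 1.75 ± 0.23. Cell cycle brakes and p53 targets gave 10 rises and 1 fall among 28, with Cdkn1a, the p21 gene, up by 1.44 ± 0.29 and the pro-apoptotic genes Bbc3 and Pmaip1 by 1.68 ± 0.31 and 1.98 ± 0.42. None of the 28 passed by replicate 1. Immediate early genes gave 12 rises and 0 falls among 24 (3 by replicate 1), with medians of 0.92, 2.08 and 1.98 on the 3 obstructed arrays. Atf3, a stress-induced repressor, rose by 3.50 ± 0.37, and Egr2, which read -1.88, -0.96 and -0.15 against -6.37 and -5.71, by 5.05 ± 0.98, with a signal well above background on 1 healthy array.

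CCAAT, the letters bound by the factor NF-Y, is common in promoters of mitosis genes. Searched in the same way on both strands, CCAAT was present in 23 of 30 mitosis genes with a promoter (76.7%) and in 17 of the 20 that rose, against 38.8% of all promoters of risen genes, 39.5% of those of tested genes and 37.5% of all promoters. The promoters of 3 risen genes that hold it are shown, with CCAAT or its reverse complement ATTGG in capitals. Plk1 lies on the plus strand, with its stretch at chr7:122159335-122159434, Bub1 on the minus strand at chr2:127831860-127831959 and Cdca8, a subunit of the chromosomal passenger complex, on the minus strand at chr4:124936918-124937017.
Plk1: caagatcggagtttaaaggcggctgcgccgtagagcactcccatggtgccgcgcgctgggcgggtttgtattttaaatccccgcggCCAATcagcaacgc
Bub1: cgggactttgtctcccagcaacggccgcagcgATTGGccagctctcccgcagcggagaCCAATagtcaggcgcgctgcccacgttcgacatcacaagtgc
Cdca8: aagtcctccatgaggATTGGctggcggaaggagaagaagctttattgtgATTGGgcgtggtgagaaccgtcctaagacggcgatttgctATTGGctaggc

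Genes of tubular transport fell along the nephron, by amounts that were smallest on UUO replicate 1. Of 30 proximal tubule transporter genes, 23 fell and 0 rose, with a median of -1.57 and medians of -0.82, -1.97 and -1.87 on the 3 obstructed arrays. By replicate 1, 0 of the 30 passed. Slc34a1, the main phosphate carrier, read 6.21, 4.27 and 4.38 on the obstructed arrays and 7.17 and 7.12 on the healthy arrays. All 3 obstructed arrays were below both healthy arrays, and the fall of 2.19 ± 0.60 (adjusted p = 0.0378) was 0.94 by replicate 1, which did not pass. The organic anion carrier gene Slc22a8 read -1.63, -2.47 and -2.58 against 0.33 and 0.58 and fell by 2.69 ± 0.45. Slc13a3, the dicarboxylate carrier, fell by 1.88 ± 0.30 and Slc22a12, the urate carrier, by 2.04 ± 0.38. Slc13a1 and Abcc4 did not pass, at 0.38 ± 0.16 and 0.72 ± 0.33. Brush border and endocytosis genes gave 14 falls and 0 rises among 23, but 0 falls by replicate 1, 6 with quantile normalization and 9 in the authors' deposited value table. Lrp2, which encodes the endocytic receptor megalin, read 5.46, 4.12 and 4.19 against 6.46 and 6.42 and fell by 1.85 ± 0.41 (adjusted p = 0.0225), and its partner Cubn fell by 1.43 ± 0.25. Among 24 amino acid and peptide carriers, 10 fell and 3 rose (0 and 2 by replicate 1), and 5 fell with quantile normalization. The cystine carrier chains Slc3a1 and Slc7a9 fell by 1.22 ± 0.27 and 1.02 ± 0.25, and the risen ones were Slc7a5, Slc38a1 and Slc38a2, which supply amino acids to growing cells, by 2.07, 1.55 and 1.39.

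Some of the transport and metabolic genes are among those that male mouse kidneys express highly. Of 11 such genes, 4 fell and 0 rose over all 3 obstructed arrays, 11 of 11 fell without UUO replicate 1, and 0 passed by replicate 1. Kap, the androgen-regulated kidney protein gene, read 8.21, 7.44 and 7.51 against 9.02 and 8.78 and fell by 1.18 ± 0.28. Cyp4b1 read 5.83, 1.16 and 1.14 against 6.97 and 6.77, Acsm3 3.81, -1.98 and -1.57 against 4.37 and 4.49, and Slco1a1 -0.47, -5.09 and -5.01 against 0.60 and 0.42. In these 3 genes the low values were those of UUO replicates 2 and 3, which also had the high Xist signal, and none of the 3 passed the test. The part of sex in the falls of other tubular genes was not tested.

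Farther along the nephron, 15 of 26 genes of the loop of Henle and distal convoluted tubule fell and 1 rose (2 and 0 by replicate 1). Egf, which the distal convoluted tubule secretes, read 3.26, -0.36 and 0.28 on the obstructed arrays and 4.58 and 4.64 on the healthy arrays. Replicate 1 was 1.35 below the healthy mean and the other 2 arrays were far lower, and the fall was 3.55 ± 0.98 (adjusted p = 0.0381). The calcium-binding protein genes Pvalb and Calb1 fell by 4.60 ± 0.75 and 3.21 ± 0.54, and these were the 2 falls that passed by replicate 1, at -3.02 and -2.07. Kl, which encodes the FGF23 co-receptor klotho, read 3.03, 1.66 and 1.76 against 4.33 and 4.36 and fell by 2.19 ± 0.42. Umod, the gene of uromodulin, was high on all 5 arrays, between 7.02 and 7.87, and fell by 0.61 ± 0.15. The rise was that of Cldn14, a claudin that blocks calcium uptake, by 0.97 ± 0.29. Of 19 genes listed under principal cells, a list that also holds calcium-handling genes, 5 fell and 1 rose (1 and 1 by replicate 1), and 9 fell with normexp. Of the calcium-handling genes, which need not mark principal cells, Slc8a1 and S100g fell by 1.79 ± 0.20 and 2.69 ± 0.46. The water channel Aqp3 fell by 1.71 ± 0.39. The vasopressin-regulated channel Aqp2 read 2.28, 0.27 and 1.17 against 2.15 and 2.54, with replicate 1 within the healthy range, and did not pass. Intercalated cell genes gave 13 falls and 0 rises among 20 (2 and 0 by replicate 1), including the pendrin gene Slc26a4 (fell by 2.31 ± 0.44) and the bicarbonate carrier Slc4a9 (fell by 1.21 ± 0.18).

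The largest fall among called features was that of Ces1g, a carboxylesterase, by 4.95 ± 0.80 (adjusted p = 0.00941). It read -6.04 and -6.75 on UUO replicates 2 and 3 against -1.17 and -0.12 on the healthy arrays, and the change by replicate 1 was -3.36. Ces1g was well above background on 2 of the 3 obstructed arrays. Its neighbour Ces1e fell by 3.80 ± 0.93, although Ces1 copies are alike and the gene behind each probe is uncertain. The same holds for the tissue kallikreins, of which Klk1 read 5.91, 3.06 and 3.21 against 7.27 and 7.35 and fell by 3.25 ± 0.80. Dpys, an enzyme of pyrimidine breakdown, fell by 3.30 ± 0.44, the methyltransferase gene Inmt by 3.35 ± 0.73 and Dnase1 by 3.46 ± 0.76. Alox8 and Olfr480 were not well above background on the obstructed arrays and were at least 2.39-fold and at least 3.18-fold lower.

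Mitochondrial genes fell by small and even amounts. Of 37 genes of respiratory complex I, 36 fell and 0 rose, with changes between -1.33 and -0.36 and a median of -0.97. Of 40 genes of complexes II to V, 40 fell, with a median of -1.01. Ndufs1, the largest subunit of complex I, read 4.26, 3.40 and 3.56 against 5.05 and 5.09 and fell by 1.33 ± 0.26 (adjusted p = 0.016). All 3 obstructed arrays were below both healthy arrays for each of the 37 and 40 genes. Sdhc, a membrane anchor of complex II, read 3.19, 3.30 and 3.22 against 4.44 and 4.42, with replicate 1 no closer to the healthy arrays than the others, and fell by 1.19 ± 0.12 (adjusted p = 0.00164). By replicate 1 the medians were -0.60 for both lists, and 0 of 37 and 2 of 40 passed. The number of falls also depended on the scaling: 13 of 37 and 16 of 40 passed with quantile normalization, and 23 and 27 in the authors' deposited value table, with medians from -0.62 to -0.54 in those 2 scalings. The smallest complex I change, in Ndufa7, did not pass at -0.36 ± 0.12.

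The pathways that feed the respiratory chain fell as well. All 25 citrate cycle genes fell, with a median of -1.06 (1 by replicate 1, and 12 with quantile normalization). Among them, Pcx, pyruvate carboxylase, fell by 1.43 ± 0.24. These lists are not independent: Sdhc is also counted in complexes II to V, Pcx in gluconeogenesis and Cat, named next, among the antioxidant genes. Of 40 genes of fatty acid oxidation and peroxisomes, 33 fell and 0 rose (22 and 0 with quantile normalization). Acadvl, which starts the oxidation of long chains, read 5.04, 4.82 and 4.86 against 5.76 and 5.71 and fell by 0.83 ± 0.12, and Cat, catalase, fell by 1.47 ± 0.24. Decr1 fell by 0.87 ± 0.11 and was the member that passed by replicate 1. Of 31 genes of amino acid breakdown and creatine synthesis, 26 fell and 1 rose. By replicate 1 the counts were 1 and 0, and with quantile normalization 18 and 1. Hpd, of tyrosine breakdown, read -1.11, -4.16 and -3.56 against 0.84 and 0.72 and fell by 3.73 ± 0.93, Gatm, of creatine synthesis, fell by 1.72 ± 0.32, and Arg2, the mitochondrial arginase, rose by 2.11 ± 0.33. Gluconeogenesis and fructose genes gave 11 falls and 0 rises among 15, with 0 falls by replicate 1. Pck1, the rate-limiting enzyme, read 3.98, 4.01 and 3.83 against 4.96 and 5.33 and fell by 1.20 ± 0.23, and G6pc, the last enzyme, fell by 2.35 ± 0.47. Glycolysis genes were divided, with 9 falls and 3 rises among 21 (0 and 2 by replicate 1). The falls were small, such as Gapdh by 0.78 ± 0.15 and Pgam1 by 0.71 ± 0.14, and 2 of them passed with quantile normalization. The risen genes were Hk3, a hexokinase of myeloid cells (2.60 ± 0.32), the glucose carrier Slc2a3 (1.82 ± 0.29) and the lactate exporter Slc16a3 (1.75 ± 0.17). Cytochrome P450 genes gave 12 falls and 2 rises among 34 (1 and 1 by replicate 1, and 20 falls with normexp), and Cyp2j5, an epoxygenase, fell by 1.37 ± 0.16, while Cyp1b1 rose by 2.55 ± 0.34. Conjugating enzymes and esterases gave 19 falls and 0 rises among 36 (3 and 0 by replicate 1), including Gsta3, which fell by 1.91 ± 0.20.

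The Notch pathway was called at about the share of all features, which was 27.2%. Of 10 receptors and ligands, 3 rose, and 0 passed by replicate 1: Notch3 itself as above, Notch2 by 0.39 ± 0.12 (adjusted p = 0.0498) and the endothelial ligand gene Dll4 by 0.70 ± 0.17 (adjusted p = 0.0273). Notch2 read 0.64, 0.48 and 0.65 against 0.20 and 0.19, and Dll4 read -3.92, -3.89 and -3.93 against -4.43 and -4.80. Both sets of arrays were separate, but with normexp background correction the list gave 1 rise and 1 fall. Notch1, Notch4 and Jag1 did not pass, at -0.36 ± 0.67, 0.16 ± 0.14 and 0.24 ± 0.25. Dlk1, a non-canonical ligand, read -3.99, 1.91 and 2.16 against -3.52 and -3.63, high on UUO replicates 2 and 3 alone, and did not pass. Among 29 modifiers and targets, 6 rose and 4 fell (1 and 0 by replicate 1). Heyl, a Notch target of smooth muscle and pericytes, read -2.50, -1.67 and -1.33 against -3.73 and -3.63 and rose by 1.84 ± 0.37 (adjusted p = 0.0177). Lfng, a glycosyltransferase that tunes Notch for its ligands, rose by 2.01 ± 0.30, and Numbl, an inhibitor, by 1.95 ± 0.30, the latter also by replicate 1. Hes1 did not pass at 0.02 ± 0.37, and Hes6, Rfng and the gamma-secretase subunit Aph1a fell by 0.95 ± 0.21, 0.85 ± 0.18 and 0.68 ± 0.14.

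Whether the response differed from that of wild-type kidneys was tested as the difference of both changes in the same fit. No feature passed (smallest adjusted p = 0.162), while at an unadjusted p under 0.05 the log2 fold change was higher in Notch3-/- for 705 features (2.95%) and lower for 1000 (4.19%). Higher and lower refer here to the signed difference, Notch3-/- minus wild type, which was below 0 for 13669 of the 23878 features and above 0 for 10209. Genotype and scan campaign cannot be told apart here, since all wild-type arrays were scanned in one campaign and all Notch3-/- arrays in another. A constant shift between campaigns drops out of this difference, but slide does not. Both wild-type obstructed arrays shared a slide that held neither wild-type healthy array, so slide and obstruction cannot be told apart in wild type. All obstructed Notch3-/- arrays shared a slide with healthy replicate 1, and healthy replicate 2 was on another. The mitosis list stood lower in Notch3-/-: for 36 of 36 genes the change was smaller than in wild type, 29 of them at an unadjusted p under 0.05, with a median difference of -1.91. Mki67 rose by 1.53 in Notch3-/- and by 3.99 in wild type, a difference of -2.45 ± 0.47 (adjusted p = 0.362). Pbk was at 0.41 in Notch3-/- and 3.84 in wild type, a difference of -3.44 ± 0.52 (adjusted p = 0.261), and the centromere gene Cenpm was at 0.47 and 3.90 (adjusted p = 0.224). DNA replication genes had a lower log2 fold change in 32 of 35, with 13 at an unadjusted p under 0.05. T and NK cell markers leaned the other way, with a higher log2 fold change in 25 of 28, 16 of them at an unadjusted p under 0.05, and a median difference of 1.18. Cxcr6, a receptor of tissue-resident T cells, rose by 1.61 in Notch3-/- and was at -0.16 in wild type, a difference of 1.77 ± 0.27 (adjusted p = 0.261). Ifng was at 2.76 and -0.22, a difference of 2.98 ± 0.38 (adjusted p = 0.224). Its probe was not well above background on the healthy Notch3-/- arrays, so the size of this difference is uncertain. Endothelial markers were higher in 18 of 20, with 8 at an unadjusted p under 0.05 and a median difference of 0.55, antigen presentation genes in 26 of 31, with 8 and a median of 0.42, and interferon genes in 31 of 40, with 4 and a median of 0.38. Adrenal cortex markers, high on UUO replicates 2 and 3, were higher in 14 of 14 with a median difference of 2.84, and the part of those arrays in the other differences was not tested. Tubular injury genes had a lower log2 fold change in 24 of 30, 9 of them at an unadjusted p under 0.05, with a median difference of -0.72, and Havcr1 rose by 6.98 in Notch3-/- and 9.85 in wild type. Collagen and macrophage lists had median differences of -0.08 and 0.07. These lists were looked at with the results in view, and their counts describe these 9 arrays. The list differences were counted in the main scaling only. Without UUO replicate 1, 44 features passed with a higher log2 fold change in Notch3-/- and 10 with a lower one.

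**Figure D5:**
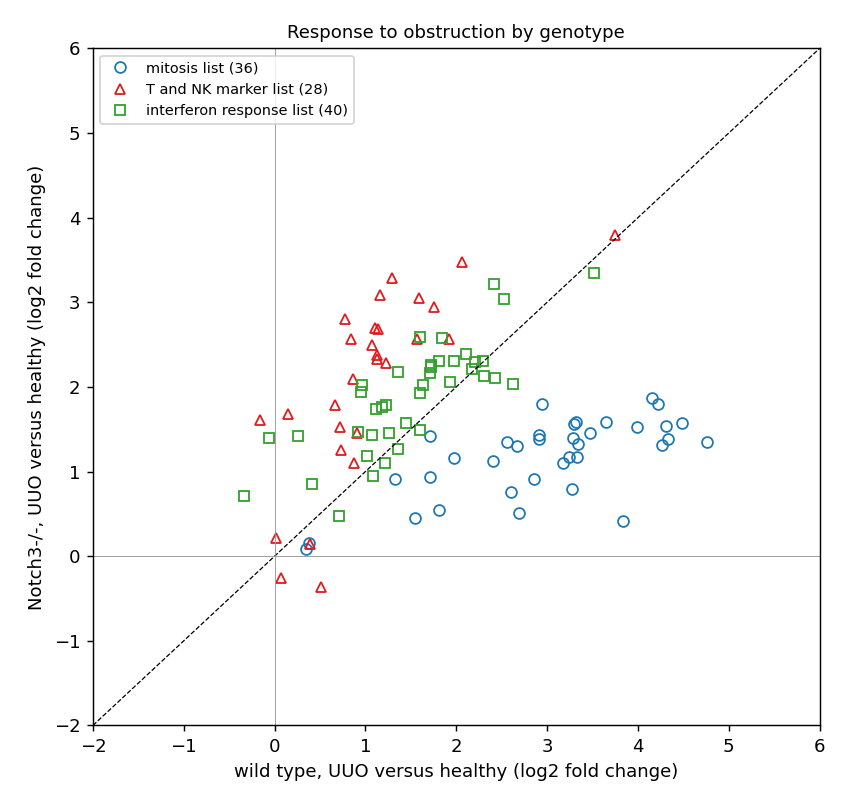
Log2 fold change of obstructed over healthy in wild type (horizontal axis) and in Notch3-/- (vertical axis) for the genes of the mitosis (circles), T and NK cell (triangles) and interferon (squares) lists; the dashed line marks equal change. All 36 mitosis genes lie below the line and 25 of 28 T and NK markers lie above it, although no single gene's difference passed the test (smallest adjusted p = 0.162).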

How the data were processed

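RNA of 9 kidney cortex samples was hybridised to Agilent 1-colour arrays, and the 5 Notch3-/- arrays are described here. The deposited intensity values are scanner output of Agilent Feature Extraction 10.7.3.1, per the file headers (10.5 in the submitters' processing notes), background-subtracted and not normalised between arrays. A value table that the authors deposited is on a log2 scale, with its centring unstated, and served as an alternative.

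Each processed intensity was taken as log2 minus the 75th percentile of its array. Outlier spots were removed, spots of a probe averaged and probes well above background on under 2 of 9 arrays left out. The brightest probe stood for a gene. Of 39429 probes, 27234 were given a gene symbol, where their transcript accession matched a single symbol in RefSeq. limma 3.58.1 in R 4.3.3 was fitted with a mean per group over all 9 arrays (5 residual degrees of freedom), with Benjamini-Hochberg adjustment at 0.05. On simulated data, with 200 of 23878 features changed, the fit recovered 18% of changes of 1 log2 unit and 73% of those of 2, and called 3 unchanged features. The real comparison called 27.2% of features, and the simulation gave a gene the same spread on all arrays. These rates therefore need not hold for the real arrays.

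Alternatives were normexp background correction (offset 50, median signals), quantile normalization, the authors' table, other filters, blocks, weights and thresholds, and leaving out each Notch3-/- array. No wild-type array was left out. The labels' numbers were not taken to pair the arrays, since the labels state no pairing. Same-numbered obstructed and healthy arrays deviated together with correlations of 0.158 and 0.07. These values cannot decide the question, since the deviations of 2 healthy arrays from their mean mirror each other. The members and gene lists were chosen with earlier results of these data known. Genes were named by a rule: the 15 largest called changes in each direction with no overlap of groups and a signal well above background throughout the higher group, up to 6 called members of each list by adjusted p with up to 3 that moved least or oppositely, all members of short lists, a fixed set of kidney and Notch genes, and the 5 smallest p-values of the difference between genotypes. The text leaves out some genes that the rule allows, mostly ones that did not pass and whose sign turned with the setting, a choice made after their values were seen. A few genes are not reported here. The number of arrays limits the precision.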

Additional observations from a re-analysis of the deposited data

How the results depend on the processing

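Over all 9 arrays, 3171 features rose and 3322 fell with obstruction. The counts moved to 5243 and 6197 with array weights and to 1013 and 137 with a term for UUO replicates 2 and 3. They were 382 and 20 with both of those arrays left out, and 1178 and 138 at an adjusted p of 0.01. Falls moved to 5926 with normexp background correction, to 1411 in a fit of the Notch3-/- arrays alone and to 1353 where a 2-fold change was also required. With slide as a fixed block, 739 rose and 48 fell. With the replicate block, 867 rose and 57 fell, but the samples share only a number. Leaving out 1 Notch3-/- array at a time gave between 1109 and 4161 rises and between 117 and 4482 falls: the lowest without healthy replicate 1 and the highest without UUO replicate 1. The difference between genotypes gave 2 calls with quantile normalization, and from 0 to 54 with 1 Notch3-/- array left out (3 without healthy replicate 1). The fewer arrays of these fits are part of their construction, and otherwise the cause was not tested. The number of arrays limits what can be called, and genes near background have bounds only. Of the genes named in the text, 194 were called, and of these 108 also passed with the term for UUO replicates 2 and 3 and 98 with the replicate block. Among called genes, Itgam turned to 0.06 and Nlrp3 to 0.07 with the mean of a gene's probes. The other changes of sign were in genes that did not pass in the main fit over all 9 arrays. The Xist change below sets arrays against each other on which its probe was not well above background. With both UUO arrays of high Xist signal left out, or with a term for them, the changes were -0.32 for Cyp11b1, -0.42 for Dlk1, -0.11 for Hes1, -0.10 for Meg3 and -2.52 for Xist. Normexp gave -0.13 for Cenpm, -0.16 for Cxcr2 and -0.02 for Hes1. Ndufa7 was at 0.09 with quantile normalization and 0.05 in the authors' table, and Hes1 at -0.12 and -0.07 in these and at -0.02 with the replicate block. With 1 Notch3-/- array left out, Hes1 ranged from -0.18 to 0.22, lowest without healthy replicate 1, where Pbk was at -0.19. Without healthy replicate 2, Pbk was at 1.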

Other observations

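Antioxidant genes and targets of the factor NRF2 fell in 18 of 27 cases and rose in 0, with 1 fall by UUO replicate 1. Gsr, glutathione reductase, read 3.78, 3.85 and 3.78 on the obstructed arrays and 4.72 and 4.80 on the healthy arrays and fell by 0.96 ± 0.10 (SE, limma adjusted p = 0.00221). Nqo1 fell by 1.45 ± 0.22 and Sod1 by 1.03 ± 0.19. With quantile normalization 7 of the 27 fell and 1 rose. Heat shock and endoplasmic reticulum stress genes were divided, with 4 rises and 5 falls among 36 (1 and 0 by replicate 1), and their median changed sign with the scaling, from -0.13 to 0.18 with quantile normalization. The list was called at about the share of all features, 27.2%. The small heat shock gene Hspb1 read 4.38, 5.12 and 5.39 against 1.69 and 1.92 and rose by 3.16 ± 0.37. The mitochondrial chaperonin genes Hspd1 and Hspe1 fell by 1.05 ± 0.19 and 0.84 ± 0.18.

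Genes of cell junctions rose in 10 of 25 cases and fell in 1. The claudin genes Cldn1, Cldn3 and Cldn4 rose by 2.26 ± 0.41, 1.66 ± 0.42 and 1.88 ± 0.49, and Cldn6, which was not well above background on the healthy arrays, was at least 5.01-fold higher. The mesenchymal and embryonic cadherin genes Cdh11 and Cdh6 rose by 1.28 ± 0.27 and 1.95 ± 0.32, and Cdh6 was the member that passed by replicate 1. Among 24 genes of the renin, angiotensin and prostaglandin systems, 6 rose and 4 fell (1 and 0 by replicate 1). The prostaglandin receptor genes Ptger4 and Ptgir rose by 2.04 ± 0.31 and 1.72 ± 0.28, and Ptgds, a prostaglandin D synthase, by 1.82 ± 0.23, while Ptges2 fell by 1.05 ± 0.26. Wnt pathway genes gave 6 rises and 1 fall among 26, and 0 passed by replicate 1. Their called share was about that of all features, 27.2%. Wnt10a rose by 1.98 ± 0.35, and Tcf7, a T cell and Wnt factor that was not well above background on the healthy arrays, was at least 6.52-fold higher. Of 25 genes of cholesterol and fat synthesis, 7 fell and 0 rose, with 0 falls by replicate 1 and 3 with quantile normalization. Here too, the called share was about that of all features. The early enzyme gene Hmgcs1 fell by 1.44 ± 0.36.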
